A study of Homo sapiens with 2 samples.

Results

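Metallothioneins, the metal-sensing transcription factor MTF1 and the 2 families of zinc transporters were described in 2 unmodified human liver cancer cell lines. Genes were taken by symbol from the deposited gene tables: MT1 followed by 1 letter, MT2A, MT3, MTF1, and SLC30A or SLC39A followed by digits only. The rule found 36 of the 57820 genes listed, made up of 11 metallothionein genes, MTF1, 10 SLC30A genes and 14 SLC39A genes. The study profiled the transcriptomes of SKHEP1 and HepG2 to look at the long noncoding RNA PURPL. Each line gave 1 polyadenylated RNA library, of wild-type genotype, from cells grown in DMEM with 10% fetal bovine serum, and no metal or other agent is named for either line. SKHEP1 is labelled as endothelial cells and HepG2 as hepatocellular carcinoma.

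The libraries held 19940557 expected counts (reads assigned to genes by RSEM) in SKHEP1 and 22477757 in HepG2. In SKHEP1 the endothelial label was not borne out by the defining markers: CDH5 had 1 count, and KDR, ERG, CLDN5 and EMCN had 0. The 9 endothelial markers analysed summed to 1.49 TPM (transcripts-per-million, a level scaled by transcript length) in SKHEP1 and 7.14 TPM in HepG2, and PECAM1 was not analysed here. Hepatocyte markers were as labelled in HepG2, where all 10 of 10 were at least 4-fold higher than in SKHEP1, with ALB at 646438 counts against 0. The part of this difference in cell identity in any value below was not tested. In bulk RNA, fewer cells with a transcript and less of it per cell cannot be told apart.

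Metallothioneins are small cysteine-rich proteins that bind zinc, copper and cadmium, and the liver is a main site of their synthesis. MTF1 binds zinc through its zinc fingers and then activates metallothionein genes and the exporter gene SLC30A1 through short metal response elements in their promoters. SLC30A proteins (ZnT) carry zinc out of the cytosol, to the outside or into organelles, and SLC39A proteins (ZIP) carry it into the cytosol.

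The human metallothionein genes lie in a cluster on chromosome 16, and 4 of them have an entry in the RefSeq promoter table used here. Their last 200 bases before the transcription start are shown because they set a pair of genes detected in both lines (MT2A and MT1X) beside a pair with at most 2 counts in either line (MT1B and MT1H). On build GRCh38.p14, plus strand, MT2A is at chr16:56608384-56608583, MT1X at chr16:56682270-56682469, MT1B at chr16:56651686-56651885 and MT1H at chr16:56669614-56669813. The sequences run 5′ to 3′ up to the base before the start, and capitals mark metal response element cores, searched as TGCACNC and TGCGCNC on both strands, with overlapping matches counted separately.
MT2A: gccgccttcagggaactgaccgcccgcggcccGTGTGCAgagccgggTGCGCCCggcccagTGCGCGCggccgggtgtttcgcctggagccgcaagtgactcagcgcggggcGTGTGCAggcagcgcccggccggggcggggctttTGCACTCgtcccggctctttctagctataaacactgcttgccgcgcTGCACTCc
MT1X: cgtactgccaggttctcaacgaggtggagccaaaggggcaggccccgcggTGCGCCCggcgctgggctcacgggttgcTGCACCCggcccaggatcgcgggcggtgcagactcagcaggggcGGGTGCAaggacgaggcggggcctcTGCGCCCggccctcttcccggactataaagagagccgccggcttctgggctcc
MT1B: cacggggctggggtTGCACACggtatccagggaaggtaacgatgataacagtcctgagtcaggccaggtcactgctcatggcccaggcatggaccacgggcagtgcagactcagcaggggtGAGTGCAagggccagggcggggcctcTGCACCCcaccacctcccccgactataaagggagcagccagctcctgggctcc
MT1H: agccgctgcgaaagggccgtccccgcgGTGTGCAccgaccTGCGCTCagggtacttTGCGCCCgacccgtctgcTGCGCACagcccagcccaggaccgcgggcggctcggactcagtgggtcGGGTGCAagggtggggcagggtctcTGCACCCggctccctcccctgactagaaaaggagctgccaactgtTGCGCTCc

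Within the 300-base windows of the table (250 bases before the start and 50 after) MT2A held 8 cores, MT1H 8, MT1X 4 and MT1B 3. Among all 35116 windows of that length, 29.6% held at least 1 core, 2.30% at least 3 and 0.162% at least 5. Matches fell at like places: MT1X, MT1B and MT1H each had a core from 53 to 47 bases before the start, and MT2A had 1 from 54 to 48 bases before it. An opposite-strand core lay from 78 to 72 bases before the start in MT1X and MT1H. The MTF1 window held 0 cores and the SLC30A1 window 2. Of the 21 zinc transporters with an entry, 12 held at least 1 core in a window. Some of these genes have more than 1 window, so this count by gene cannot be set against the 29.6% of windows. Among the 4 metallothionein genes with a window, the number of cores did not follow the transcript level: MT1H, with as many cores as MT2A, had 0 counts in both lines. The other metallothionein genes, MT1E, MT1F and MT1G among them, had no window to count. A match is a description of the letters and not of binding.

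**Figure D1:**
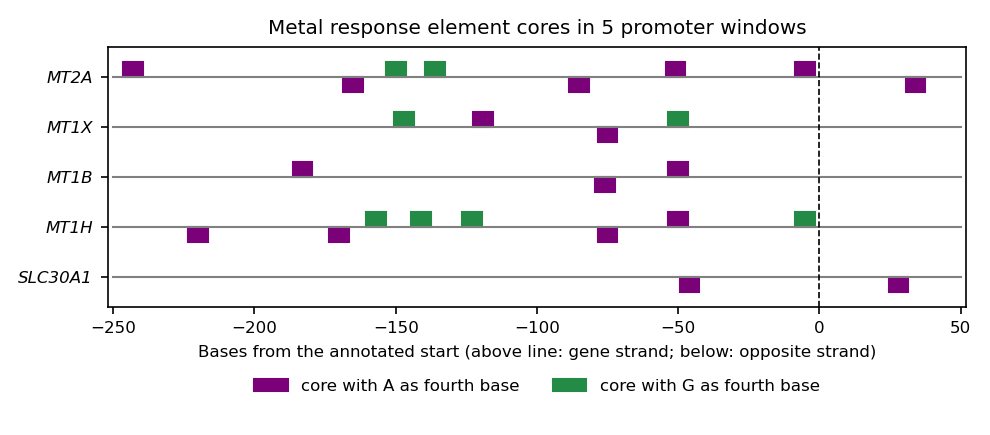
Positions of the metal response element cores in the promoter windows of MT2A, MT1X, MT1B, MT1H and SLC30A1, in bases from the transcription start. Marks stand for single matches, by core type and strand. MT2A and MT1H hold 8 matches each, MT1X 4, MT1B 3 and SLC30A1 2, and each window has a match near 50 bases before the start.

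Of the 36 genes, 28 reached an expected count of 10 in at least 1 library and were compared, 20 of them in both libraries. The other 8 that were compared reached it in 1 line only, 4 in each, a selection that favours a difference. The 8 left out were MT1B, MT1H, MT1M, MT3, SLC30A2, SLC30A8, SLC39A2 and SLC39A12, none of which passed 6 counts. Levels were compared between lines in CPM (counts-per-million), that is, counts scaled to the TMM-adjusted library size, and a gene was called for a line where its level there was 4 or more times that of the other. As neither line has a second library, nothing here has a replicate check, and no p-value is given. The 95% intervals cover counting error only and not the variation between libraries. PCR copies of a molecule cannot be recognised without molecular identifiers, so the intervals may be too narrow even for counting error. A gene with 0 counts is compared through a floor of 3 counts per library (0.148 CPM in SKHEP1, 0.135 CPM in HepG2). The exact 95% interval for 0 counts reaches 3.69 counts, so a ratio with the floor is not a lower bound. Its 95% lower limit is given beside it.

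By this rule 4 of the 28 genes were higher in SKHEP1, against 16.5% of all 15436 genes compared, and 7 were higher in HepG2, against 13.0% of all genes. Those higher in SKHEP1 were MT1L, SLC30A4, SLC39A8 and SLC39A10. Those higher in HepG2 were MT1A, MT1F, MT1G, SLC30A10, SLC39A4, SLC39A5 and SLC39A14. The other 17 lay within 4-fold, as did 70.5% of all genes. The share higher in SKHEP1 (14.3%) lies near the background, and the share higher in HepG2 (25.0%) lies above it, on 7 genes. Among the 20 genes past the minimum in both lines, 1 was higher in SKHEP1 (background 6.31%) and 3 in HepG2 (background 6.64%). Just inside the limit were MT2A at 3.96-fold and MT1X at 3.25-fold, and just outside it MT1A at 4.55-fold and SLC39A14 at 4.82-fold.

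**Figure D2:**
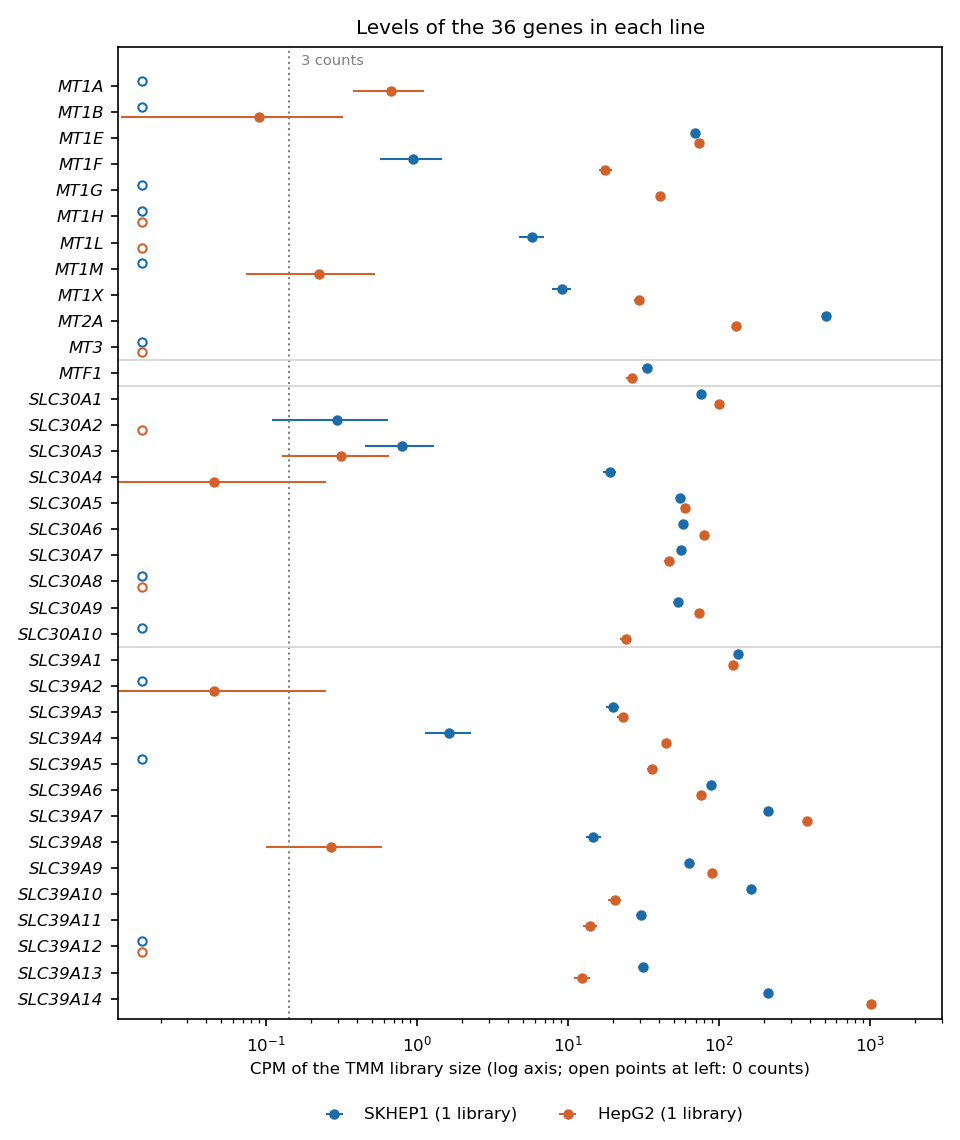
Level of each gene in SKHEP1 and HepG2 in CPM on a log axis, ordered by family; bars are exact Poisson 95% intervals for counting error, open points at left stand for 0 counts and the dotted line is the floor of 3 counts. MT2A lies at 513 CPM in SKHEP1 and 129.6 CPM in HepG2, and SLC39A14 at 209.9 and 1011 CPM.

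The metallothionein pool was larger in SKHEP1 and made of fewer genes there. All 11 genes together had 12092 counts in SKHEP1, or 598 CPM (588 to 609), and 6480 counts in HepG2, or 292 CPM (285 to 299). The sum was 2.05-fold higher in SKHEP1 (1.99 to 2.11) by CPM and 1.63-fold higher by TPM. Leaving out MT2A turned the direction: the MT1 genes summed to 85.1 CPM in SKHEP1 and 163 CPM in HepG2, 1.91-fold higher in HepG2 (1.80 to 2.02). MT2A alone thus accounted for the excess in SKHEP1.

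MT2A, a broadly expressed metallothionein gene, had 10372 counts in SKHEP1 and 2875 in HepG2. That is 513 CPM (504 to 523) against 129.6 CPM (125 to 134), 3.96-fold higher in SKHEP1 (3.80 to 4.13). The value sits at the limit of 4-fold, and MT2A was past it when total counts, TPM or FPKM were used (log2 ratio of HepG2 to SKHEP1 -1.99 by CPM and -2.10 by TPM). By TPM MT2A ranked 111 among all genes in SKHEP1, at 1489 TPM, and 376 in HepG2, at 346.5 TPM.

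MT1E, the most abundant MT1 gene of SKHEP1 by TPM, was at nearly the same level in both lines, with 1401 counts in SKHEP1 and 1630 in HepG2. The CPM ratio was 1.06-fold higher in HepG2 (0.986 to 1.14), and its sign turned by TPM, where MT1E stood at 247.9 in SKHEP1 and 245.0 in HepG2. MT1X had 184 counts in SKHEP1 and 656 in HepG2, 3.25-fold higher in HepG2 (2.75 to 3.85). Thus the MT1 excess of HepG2 was not shared evenly among the MT1 genes.

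MT1G, which encodes an isoform of the MT1 group, had 0 counts in SKHEP1 and 905 in HepG2 (40.8 CPM). With the floor it was 275-fold higher in HepG2, with a 95% lower limit of 223-fold. MT1F had 19 counts in SKHEP1 and 392 in HepG2, 18.8-fold higher in HepG2 (11.9 to 31.6). MT1A had 0 and 15 counts, 4.55-fold higher in HepG2 with the floor, but its 95% lower limit of 3.27-fold is under the limit used here. All 3 were thus above SKHEP1 in HepG2, with MT1A near detection.

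MT1L, a transcribed pseudogene of the cluster, had the opposite pattern. It had 116 counts in SKHEP1 (5.74 CPM) and 0 in HepG2. With the floor the SKHEP1 excess was 42.5-fold by CPM, with a 95% lower limit of 34.0-fold. With the same floor its log2 ratio was -5.41 by CPM and -4.44 by TPM. Its length in the deposited tables was 411 bases in SKHEP1 and 244.5 bases in HepG2, and the TPM floor depends on that length. With 0 counts in HepG2, no reads were there to weight the HepG2 length, so the lengths do not compare isoform use. MT1M had 0 counts in SKHEP1 and 5 in HepG2, and MT1B had 0 and 2. MT1H and the brain-enriched MT3 had 0 counts in both lines, where the exact interval reaches 3.69 counts.

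As shares of the summed metallothionein TPM, MT2A made up 81.1% in SKHEP1 and MT1E 13.5%, with MT1X at 3.02% and MT1L at 2.27%. In HepG2 MT2A made up 30.7%, followed by MT1G at 26.3%, MT1E at 21.7%, MT1X at 15.6% and MT1F at 5.19%. By counts the share of MT2A was 85.8% (Clopper-Pearson 85.1 to 86.4) in SKHEP1 and 44.4% (43.2 to 45.6) in HepG2. In HepG2 the count shares of the other genes were 25.2% (24.1 to 26.2) for MT1E, 13.97% (13.1 to 14.8) for MT1G, 10.1% (9.40 to 10.9) for MT1X and 6.05% for MT1F. The rank below MT2A thus depends on the scale, with MT1G above MT1E by TPM and MT1E above MT1G by counts. On both scales a single gene held most of the pool in SKHEP1, and no gene held most of it in HepG2.

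**Figure D3:**
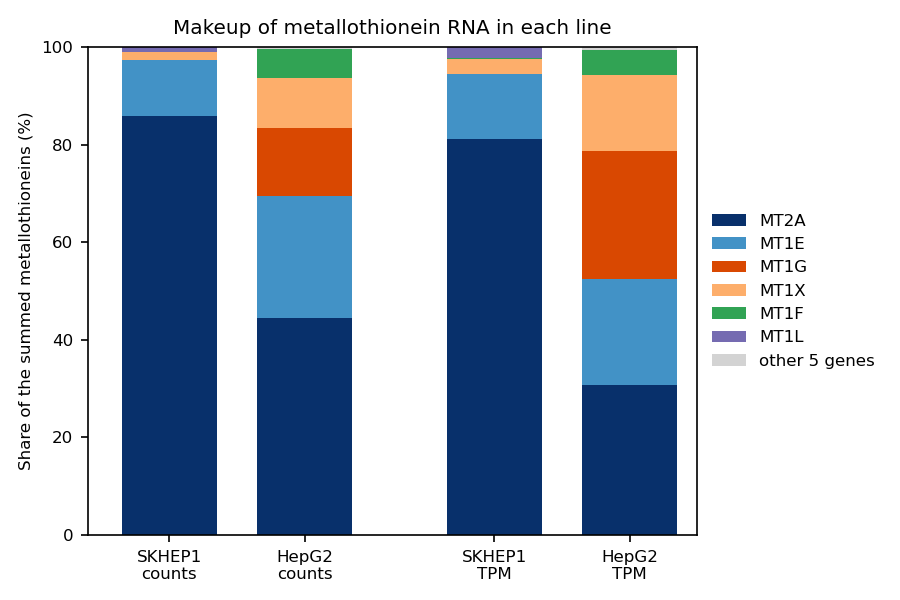
Share of the metallothionein pool held by each gene in SKHEP1 and HepG2, in percent of the summed counts (left pair of stacked bars) and of the summed TPM (right pair). MT2A holds 85.8% of counts and 81.1% of TPM in SKHEP1, and in HepG2 44.4% and 30.7%, where MT1G holds 13.97% and 26.3%.

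Near-identical copies can exchange reads, and RSEM divides such reads by estimate. In HepG2 the expected counts of MT1G and MT1X were fractional (904.62 and 656.38) and summed to 1561.00, so reads were divided between these genes there. In GENCODE release 29 transcripts, 51 of the 50-base windows were common to MT1G, which has 844, and MT1X, which has 1867. Windows shared with any other gene made up 16.5% for MT1G and 18.3% for MT1X, against 3.02% for MT2A and 1.22% for MT1F, and 273 of those of MT1X were shared with the overlapping gene AC026461.1. The read length is not given in the sources used here. The division of reads between MT1G and MT1X in HepG2 is therefore an estimate, and how far it could be off was not tested. In SKHEP1 MT1X had 184 counts with MT1G at 0.

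Along the cluster, the genes between MT1E and MT1X were at 0 counts in SKHEP1 apart from MT1F. In HepG2 MT1M, MT1A, MT1B, MT1F and MT1G in that stretch had counts, with MT1F and MT1G above 100. The pseudogene copies MT1CP, MT1DP and MT1JP and the squamous-epithelium gene MT4 had 0 counts in both lines, and MT1IP was not analysed here. The 8 flanking genes compared were mostly close between the lines: NUDT21 had 219 CPM in SKHEP1 and 316 CPM in HepG2, and NUP93 150.4 and 138.6 CPM. GNAO1 was the 1 flanking gene past 4-fold, with 57 counts in SKHEP1 and 1 in HepG2. That is 12.5% of those compared, near the 16.5% of all genes that were higher in SKHEP1.

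**Figure D4:**
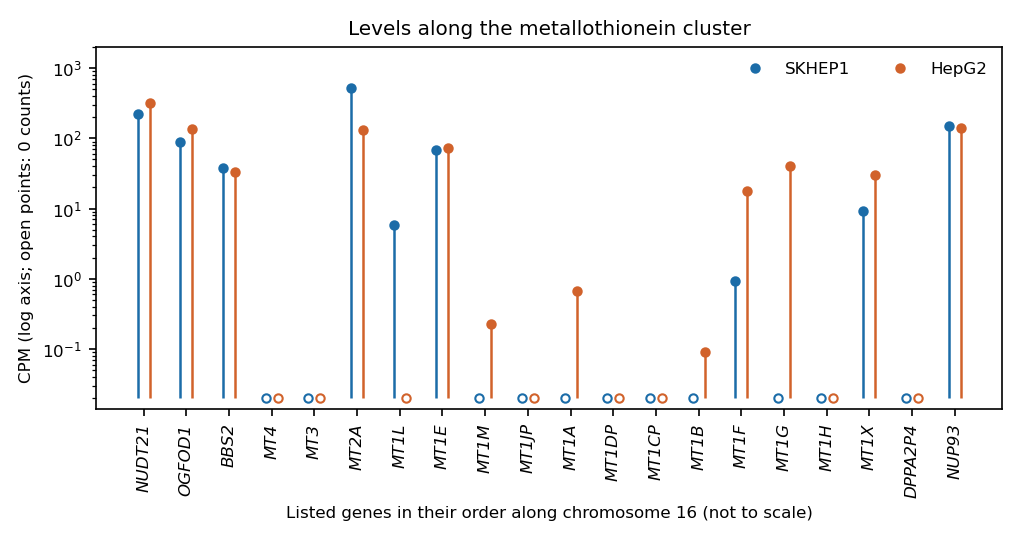
Level in CPM, on a log axis, of the metallothionein genes and their neighbours in order along chromosome 16, in SKHEP1 and HepG2. The flanking genes NUDT21, OGFOD1, BBS2 and NUP93 lie close in both lines, while MT2A and MT1L are higher in SKHEP1 and MT1A, MT1F, MT1G and MT1X higher in HepG2.

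MTF1, the zinc-sensing activator of these genes, differed little. It had 672 counts in SKHEP1 and 585 in HepG2, 1.26-fold higher in SKHEP1 (1.13 to 1.41). None of 7 other factors known to act on metallothionein transcription was past 4-fold. All 7 passed the minimum in both lines, where the background share past 4-fold was 6.31% toward SKHEP1 and 6.64% toward HepG2. With 7 genes, a count of 0 cannot be told from shares that small. NR3C1, the glucocorticoid receptor, was 2.45-fold higher in SKHEP1 (2.29 to 2.61), and NFE2L2, the oxidative stress activator, 2.39-fold higher in HepG2 (2.27 to 2.51).

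Of the 10 SLC30A exporters, 5 were expressed at like levels in both lines, and SLC30A10 and SLC30A4 passed 4-fold, 1 in each direction. The other 3 genes, SLC30A2, SLC30A3 and SLC30A8, had at most 16 counts in a library. Of the 8 genes of the family compared, 12.5% were higher in each line. That is near the 16.5% of all genes higher in SKHEP1 and the 13.0% higher in HepG2. By TPM the order of the first 5 was the same in both lines: SLC30A9, SLC30A5, SLC30A1, SLC30A6 and SLC30A7. Their levels ran from 32.0 to 19.6 TPM in SKHEP1 and from 41.0 to 19.3 TPM in HepG2. SLC30A9 and SLC30A5 were at 32.0 and 31.9 TPM in SKHEP1 and so were not separated there. In HepG2 SLC30A1 and SLC30A6 were at 29.3 and 28.8 TPM, and SLC30A7 and SLC30A10 at 19.3 and 19.1 TPM. Neither of these pairs was separated in HepG2. The family summed to 137.3 TPM in SKHEP1 and 176.0 TPM in HepG2.

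SLC30A1, the exporter of the plasma membrane and a target of MTF1, had 1529 counts in SKHEP1 and 2233 in HepG2, 1.33-fold higher in HepG2 (1.25 to 1.42). SLC30A5 and SLC30A6, which pair to load zinc into enzymes of the early secretory pathway, were 1.07-fold (0.987 to 1.16) and 1.37-fold (1.27 to 1.48) higher in HepG2. SLC30A7, a Golgi transporter, had 1140 and 1028 counts, 1.22-fold higher in SKHEP1 by CPM (1.12 to 1.33), though by TPM it stood at 19.6 and 19.3. SLC30A9, a mitochondrial zinc exporter, was 1.37-fold higher in HepG2 (1.27 to 1.48). These 5 genes thus stayed within 1.5-fold.

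SLC30A10, which exports manganese from hepatocytes and is mutated in inherited hypermanganesaemia, had 0 counts in SKHEP1 and 536 in HepG2 (24.2 CPM). With the floor it was 163-fold higher in HepG2, with a 95% lower limit of 132-fold. SLC30A4, a transporter of endosomal vesicles, had the opposite pattern with 382 counts in SKHEP1 (18.9 CPM) and 1 in HepG2, a raw ratio of 419-fold (74.8 to 16608). SLC30A3, the transporter of synaptic vesicles, had 16 and 7 counts, and the interval of its ratio reached both sides of 1 (0.977 to 7.21). SLC30A2 had 6 counts in SKHEP1 and 0 in HepG2, and SLC30A8, the transporter of insulin granules, had 0 in both.

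The SLC39A importers summed to 603 TPM in SKHEP1 and 1024 TPM in HepG2. SLC39A14, which takes up zinc, iron and manganese at the hepatocyte surface, led the family in HepG2 at 356 TPM and was the third in SKHEP1 at 75.6 TPM. It had 4241 counts in SKHEP1 and 22438 in HepG2, 4.82-fold higher in HepG2 (4.66 to 4.98). SLC39A7, which releases zinc from the endoplasmic reticulum, led in SKHEP1 at 167.9 TPM and was the second in HepG2 at 301.6 TPM. Its counts were 4240 and 8531, 1.83-fold higher in HepG2 (1.77 to 1.90). Below them in SKHEP1 came SLC39A1 at 112 TPM, SLC39A10 at 54.7, SLC39A3 at 47.8 and SLC39A6 at 47.2, the last 2 differing by under 1 TPM. In HepG2 SLC39A1 stood at 100.2 TPM, SLC39A3 at 54.9, SLC39A4 at 54.5 and SLC39A5 at 48.2, and SLC39A10 at 7.11. SLC39A10 was the fourth of the family by TPM in SKHEP1 and ranked 11 in HepG2, and SLC39A4 ranked 11 in SKHEP1 and 5 in HepG2. SLC39A14 made up 12.5% of the family's TPM in SKHEP1 and 34.8% in HepG2.

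SLC39A5, a transporter of the basolateral membrane in liver, gut and pancreas, had 0 counts in SKHEP1 and 794 in HepG2 (35.8 CPM). With the floor it was 241-fold higher in HepG2, with a 95% lower limit of 196-fold by CPM. Its log2 ratio, with the same floor, was 7.91 by CPM and 7.17 by TPM. Its length in the deposited tables was 898 bases in SKHEP1 and 1336 bases in HepG2, and the TPM floor depends on that length. With 0 counts in SKHEP1, no reads were there to weight the SKHEP1 length. SLC39A4, the intestinal zinc importer mutated in acrodermatitis enteropathica, had 33 counts in SKHEP1 and 994 in HepG2, 27.4-fold higher in HepG2 (19.4 to 40.1). Its log2 ratio was 4.78 by CPM and 3.23 by TPM, and its isoform-weighted length in the deposited tables was 639 bases in SKHEP1 and 1458 bases in HepG2.

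A pair of importers was higher in SKHEP1. SLC39A10, a plasma membrane importer that pairs with SLC39A6, had 3291 counts in SKHEP1 and 451 in HepG2, 8.01-fold higher in SKHEP1 (7.26 to 8.86). SLC39A8, a transporter of zinc, manganese and cadmium, had 297 and 6 counts, 54.3-fold higher in SKHEP1 (24.7 to 149). SLC39A6 itself had 1796 and 1680 counts, 1.17-fold higher in SKHEP1 (1.10 to 1.26), so the partners did not share their ratio. The manganese-carrying pair of importers was split, with SLC39A8 higher in SKHEP1 and SLC39A14 in HepG2.

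The remaining importers stayed within 4-fold. SLC39A1, a ubiquitous surface importer, had 2691 counts in SKHEP1 and 2741 in HepG2, 1.08-fold higher in SKHEP1 (1.02 to 1.14). SLC39A13, a transporter of Golgi vesicles mutated in a form of Ehlers-Danlos syndrome, had 635 and 275 counts, 2.54-fold higher in SKHEP1 (2.20 to 2.93), and SLC39A11 was 2.17-fold higher there (1.89 to 2.50). SLC39A9, of the Golgi, was 1.42-fold higher in HepG2 (1.32 to 1.52), and SLC39A3 1.16-fold (1.01 to 1.32). SLC39A2 had 0 counts in SKHEP1 and 1 in HepG2, and SLC39A12, a brain-enriched importer, had 0 in both.

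**Figure D5:**
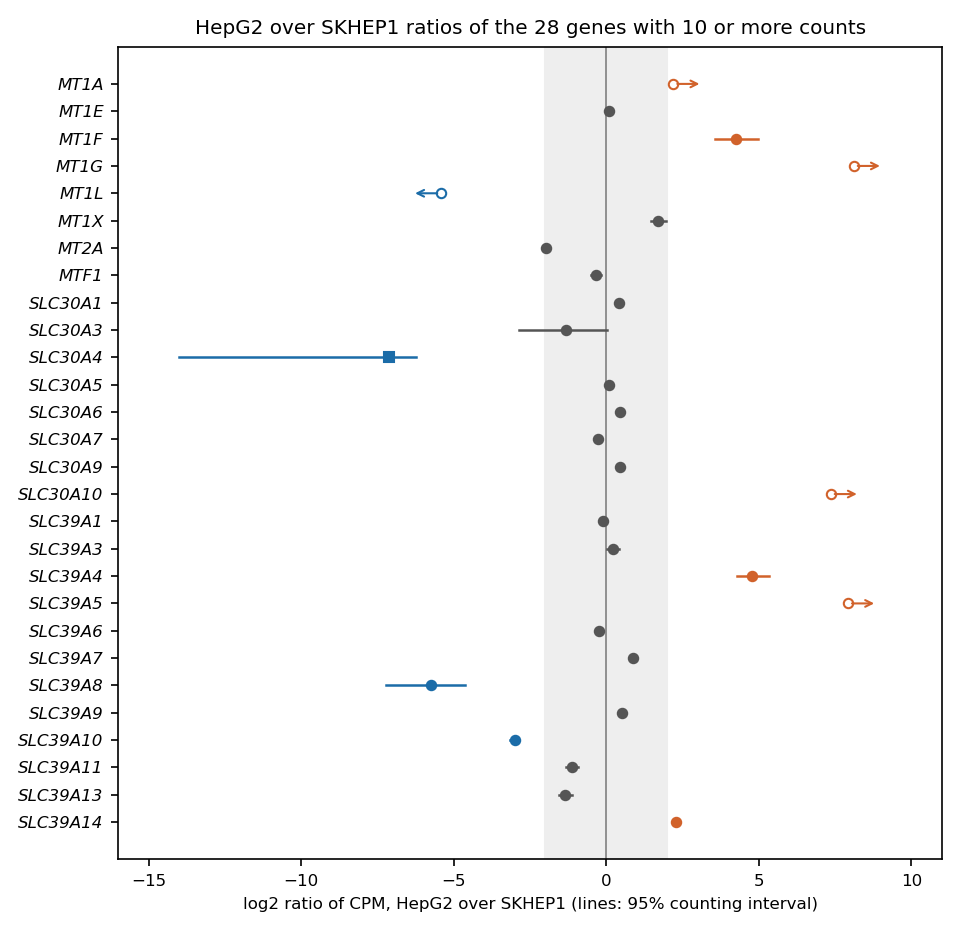
Log2 ratio of HepG2 to SKHEP1 in CPM for the 28 genes compared, with 95% counting intervals. The grey band is within 4-fold. Open points with arrows are genes with 0 counts in a line and the square is SLC30A4, all placed by the floor of 3 counts. Ratios run from -7.13 for SLC30A4 to 8.10 for MT1G, and 17 genes lie inside the band.

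By family, the median log2 ratio of HepG2 to SKHEP1 was 1.70 for the 7 metallothioneins compared and 0.25 for the 8 SLC30A genes. It was 0.05 for the 12 SLC39A genes, and genes at 0 were placed by the floor. The median over all genes compared was -0.03. Each family spanned both directions, from -5.41 to 8.10, from -7.13 to 7.35 and from -5.76 to 7.91. The metallothionein median is positive while the summed pool has a log2 ratio of -1.03, and MT2A counts as 1 gene in the median but as 85.8% of the summed counts in SKHEP1 and 44.4% in HepG2.

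Exons of 10 of the 36 genes overlap an exon of another gene on the opposite strand in GENCODE release 29, among them SLC30A4, SLC39A4, SLC39A5 and SLC39A7. No source used here gives the strand setting of the counting, and reads from such partners cannot be told apart without it. SLC39A8, SLC39A1, SLC39A3, MT1B and MT1X overlap another gene on their own strand. For SLC39A1, 55.2% of the 50-base windows are also in the overlapping gene AL358472.7. SLC39A3 had 400.63 expected counts in SKHEP1 beside 38.37 for AC006538.4, which sum to 439, so reads were divided there too.

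Among 16 copper-handling genes compared, 3 passed the limit toward HepG2 and 0 toward SKHEP1, leaving 13 inside it. The share toward HepG2 was 18.8%, against 13.0% of all genes, and by TPM or FPKM 2 genes passed. Of the 15 copper-handling genes past the minimum in both lines, 2 were higher in HepG2, against a background of 6.64%. The list had a median log2 ratio of 0.14. ATP7B, the hepatocyte copper exporter mutated in Wilson disease, had 222 counts in SKHEP1 and 3685 in HepG2, 15.1-fold higher in HepG2 (13.2 to 17.4). CP, the copper-carrying plasma protein ceruloplasmin, had 1 count in SKHEP1 and 2003 in HepG2, a raw ratio of 1824-fold (327 to 72095). SLC31A1, the copper importer, was 4.62-fold higher in HepG2 (4.30 to 4.98) but not past 4-fold by TPM or FPKM.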

How the data were processed

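RNA-seq gene tables of 1 SKHEP1 and 1 HepG2 library were used, grouped by the cell line labels. The submitters' processing notes name cutadapt, STAR, RSEM, DESeq2 and build hg19. Not given in the sources used here are versions, annotation, read length and strand setting. Per the file headers, the deposited values are RSEM expected counts, TPM and FPKM, with isoform-weighted gene lengths.

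Rounded expected counts were divided by TMM-adjusted totals (edgeR 4.0.16, R 4.3.3; factors 1.01 for SKHEP1 and 0.99 for HepG2) to give CPM. A gene entered the comparison with 10 or more counts in a library, ratios of 4 or more were called, and a count under 3 was replaced by 3. A ratio with 1 to 3 counts is given raw. Intervals at 95% are exact Poisson for levels and conditional Clopper-Pearson for ratios, and the comparison was tested on simulated data. The simulated counts held counting error only, so that test says nothing of variation between libraries or of reads shared between genes. Alternatives were total counts, DESeq2 1.42.0 size factors, TPM, FPKM, thinned or unrounded counts, a prior count, other minimums, other fold limits and means. Other software was scipy 1.17.1, pandas 2.3.3, numpy 2.4.6 and matplotlib 3.10.9 under Python 3.11.15.

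Promoter windows are from RefSeq on GRCh38.p14, matched by symbol for 26 of the 36 genes. Shared windows and exon overlaps are from GENCODE release 29, a different build from the deposited tables. Gene order along the cluster is from the RefSeq gene table. All genes of the symbol rule could be named, and from every other list at most 2 per direction that were 4-fold or more apart and had 100 or more counts in the higher line. SLC31A1, CA9, CA12, NR3C1, NFE2L2, GNAO1, NUDT21, NUP93 and the markers were named in addition, after their values were seen. The genes and lists were chosen with earlier results of these data known.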

Additional observations from a re-analysis of the deposited data

How the results depend on the processing

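All 11 genes past 4-fold kept their call under the 7 alternatives of scaling, counts and prior run for single genes, and 27 of 28 kept their sign, MT1E being the exception by TPM and FPKM. MT2A passed 4-fold with total counts, TPM and FPKM. With a limit of 2-fold, 8 genes were higher in SKHEP1 in place of 4. The 7 genes higher in HepG2 became 8 with that limit, 5 with a limit of 8-fold, and 6 with a minimum of 50 counts or when the lower bound of the ratio had to pass. No share of all genes is given here for these other limits and minimums, so these counts cannot be set against a background. The summed metallothionein log2 ratio was -1.03, and -0.70 by TPM and -0.69 by FPKM. The metallothionein median of 1.70 was 0.89 with a minimum of 50 counts, 0.60 with a minimum of 1, and the mean was 1.27. The SLC30A median of 0.25 was 0.41 with a minimum of 50 and 0.10 with a minimum of 1, and the mean was 0.0029. The SLC39A median of 0.05 turned to -0.11 with a minimum of 1, and the mean was 0.42. A minimum changes which genes enter a median; the cause of the other shifts was not tested. The floor of 3 counts was a choice, and for a gene at 0 the exact 95% interval reached 0.183 CPM in SKHEP1 and 0.166 CPM in HepG2. No paired analysis was possible because each line has 1 library.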

Other observations

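Of 8 listed zinc-dependent enzymes of the secretory pathway and cell surface, 5 were compared, 3 of which passed the minimum in 1 line only. At 4-fold, 3 were higher in SKHEP1 (16.5% of all genes) and 2 in HepG2 (13.0% of all genes). ALPL, the tissue-nonspecific alkaline phosphatase, was 1262-fold higher in SKHEP1 by raw ratio (349 to 10427), from 2299 counts against 2. NT5E, the surface enzyme that makes adenosine, had 4374 and 318 counts, 15.1-fold higher in SKHEP1 (13.5 to 17.0). ENPP1, which makes pyrophosphate, had 211 and 3003 counts, 13.0-fold higher in HepG2 (11.3 to 15.0). CA9 had 0 and 34 counts. CA12 had 35 and 7 counts, with a log2 ratio of -1.20 by TPM, and by TPM and FPKM 2 genes were past 4-fold in each line.

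GPR39, a receptor activated by extracellular zinc, had 577 counts in SKHEP1 and 13 in HepG2, 48.7-fold higher in SKHEP1 (28.3 to 92.1). It was the 1 of 5 other zinc-handling genes past 4-fold, 20.0% against 16.5% of all genes compared. Among genes past the minimum in both lines, as these 5 were, the background was 6.31%. Among 5 manganese and divalent metal transporters compared, SLC40A1, the iron exporter ferroportin, was the 1 past 4-fold. It had 69 counts in SKHEP1 and 1996 in HepG2, 26.3-fold higher in HepG2 (20.7 to 34.0). The share was 20.0%, against 13.0% of all genes compared and 6.64% of those past the minimum in both lines. All 5 passed that minimum.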
